A study of Mus musculus with 5 samples.

Results

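Small RNAs of primordial germ cells (PGCs) were compared with those of zygotes, which are 2 of the 5 libraries and 8 of the 20 tables of the series, chosen by their stage labels. PGCs are the embryonic founders of eggs and sperm, and the zygote is the fertilized egg before its first division. The PGC library came from male gonads of CD-1 fetuses at 13.5 days post coitum, from cells caught with magnetic beads against CD15 (SSEA-1), a surface sugar of PGCs, with purity checked by alkaline phosphatase staining. The zygote library came from 15416 zygotes taken 15 to 18 hours after fertilization from superovulated C57BL/6 females 4 to 5 weeks old, mated with DBA/6J males. These zygotes were stripped of cumulus cells with hyaluronidase and of the zona pellucida with acidic Tyrode solution. Superovulation was by PMSG and then HCG. Both libraries were made from TRIzol total RNA, and sequences of 18 to 32 nucleotides were reported. No messenger RNA was measured, so the labels could not be checked against coding markers of PGCs or zygotes. There was 1 library a side, so no difference has a replicate check and no test was made. Strain, tissue and preparation also differ between the libraries and cannot be told apart from cell type.

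MicroRNAs (miRNAs) are short RNAs that lead Argonaute proteins to messenger RNAs by pairing through their seed, bases 2 to 8 counted from 1 at the 5′ end. Small nucleolar RNAs (snoRNAs) guide chemical marks onto ribosomal and spliceosomal RNA, and pieces of them are found among small RNA reads. PIWI-interacting RNAs (piRNAs) hold transposons down in germ cells, and endogenous small interfering RNAs (endo-siRNAs) arise in mouse eggs when Dicer cleaves double-stranded RNA. Both PGCs and the zygote pass through a genome-wide loss of DNA methylation.

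The miRNAs on which the comparison turned are shown 5′ to 3′ with the seed in capitals. They were matched by name to RefSeq mature sequences on GRCm38.p6, which covered 1090 of the 1316 miRNA entries of the series, 369 of the 450 measured ones, and 91.8% of the miRNA reads in PGCs and 92.3% in zygotes. The first pair were the most abundant miRNAs of PGCs, both from the cluster of miR-183, miR-96 and miR-182 on chromosome 6, with seeds that differ.
miR-182-5p: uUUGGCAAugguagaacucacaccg
miR-183-5p: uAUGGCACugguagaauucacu
The next set share the seed AAAGUGC and come from 3 related clusters, on chromosome 14 (miR-17 and miR-20a), chromosome 5 (miR-93 and miR-106b) and the X chromosome (miR-20b and miR-106a).
miR-17-5p: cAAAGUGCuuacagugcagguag
miR-20a-5p: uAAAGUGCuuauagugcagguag
miR-93-5p: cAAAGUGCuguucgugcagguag
miR-106b-5p: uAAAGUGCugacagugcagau
miR-20b-5p: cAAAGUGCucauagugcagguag
miR-106a-5p: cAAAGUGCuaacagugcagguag
Counted from the 5′ end, miR-106a-5p differs from miR-17-5p at a single base (U10A), and miR-20b-5p differs from miR-20a-5p by U1C and U10C. From the same clusters, the following pair share the seed AAGGUGC and differ by A18U and A20U.
miR-18a-5p: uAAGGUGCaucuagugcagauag
miR-18b-5p: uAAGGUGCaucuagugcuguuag
A frame shifted by 1 base, AAGUGCU, is the seed of the embryonic stem cell miRNAs of the miR-290 cluster on chromosome 7 and of miR-302b on chromosome 3.
miR-291a-3p: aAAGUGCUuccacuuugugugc
miR-294-3p: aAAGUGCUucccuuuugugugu
miR-295-3p: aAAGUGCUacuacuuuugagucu
miR-302b-3p: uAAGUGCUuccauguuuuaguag
The let-7 family, with the seed GAGGUAG, was the main group of zygotes.
let-7f-5p: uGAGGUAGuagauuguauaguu
let-7a-5p: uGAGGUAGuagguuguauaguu
let-7g-5p: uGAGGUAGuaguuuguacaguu
let-7b-5p: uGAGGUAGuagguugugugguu
miR-98-5p: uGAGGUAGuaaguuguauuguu
let-7f-5p differs from let-7a-5p at a single base (G12A). The second most abundant miRNA of zygotes, miR-3471, has a seed of its own. RefSeq places one of its loci at chr4:10845585-10845606 on the minus strand, where no GENCODE host gene was found on that strand.
miR-3471: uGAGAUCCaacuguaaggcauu
The last pair, with the seed ACAUUCA, were shown for their place: both lie on the minus strand of chromosome 8 in an intron of Nanos3 (GENCODE vM21). Nanos3 is a gene needed for survival of PGCs.
miR-181c-5p: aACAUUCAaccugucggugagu
miR-181d-5p: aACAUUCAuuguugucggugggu

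The 4 tables held 26563078 reads in PGCs and 43231607 in zygotes, spread very differently over the classes. MiRNA entries took 45.2% of reads in PGCs, against 5.38% in zygotes, and snoRNA entries 28.3% in PGCs, against 1.37% in zygotes. The piRNA share was nearly the same, 21.9% in PGCs and 22.1% in zygotes. Endo-siRNA entries took 4.58% in PGCs, against 71.2% in zygotes. Exact 95% binomial intervals of these shares were at most 0.0379 percentage points wide, and they cover counting error only. With the 5 leading entries of each class in each library left out, the snoRNA share was 1.21% in PGCs and 0.180% in zygotes, and the piRNA share 40.8% in PGCs and 24.7% in zygotes. Reads of an entry were therefore divided by those of its class in the same library and multiplied by 1000000 (RPM). The totals so used were 12004614 miRNA reads in PGCs and 2327081 in zygotes, but 1216678 endo-siRNA reads in PGCs and 30760735 in zygotes. A level is then a share of its class, and fewer cells of a type or less of the RNA per cell cannot be told apart.

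**Figure D1:**
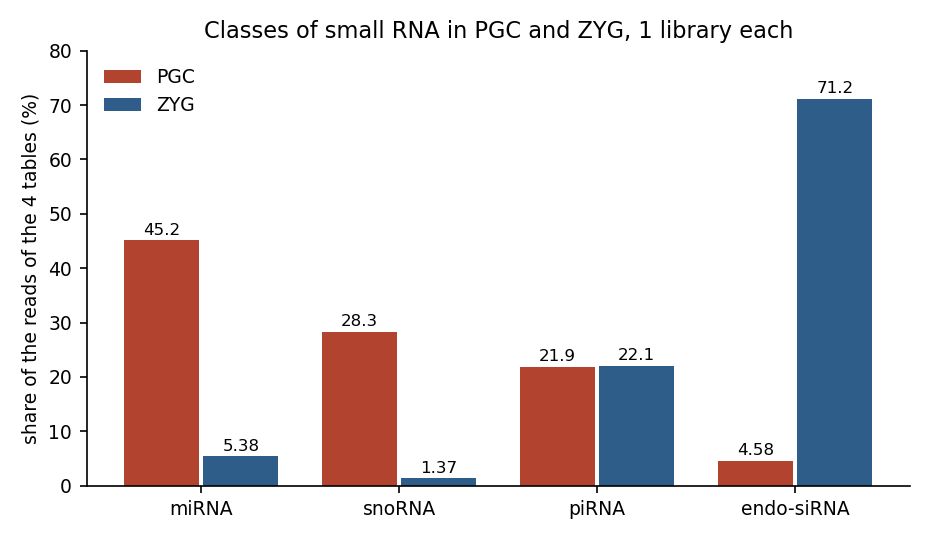
Share of the reads of the 4 tables (%) on each class of small RNA, in PGCs (left bars) and zygotes (right bars), 1 library each, with no error bars since there are no replicates. MiRNA and snoRNA entries took 45.2% and 28.3% of the reads in PGCs, endo-siRNA entries 71.2% in zygotes, and the piRNA bars are almost level.

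An entry was measured if it had 100 or more reads over the pair, ratios are PGC over zygote on a log2 scale with 0.5 reads added, and an entry is called higher or lower at 4-fold or more. Brackets after a fold give its exact 95% interval from the counts of the 2 libraries. Of 450 measured miRNAs, 118 (26.2%) were higher and 77 (17.1%) lower in PGCs, with a median log2 ratio of 0.75 over all 450. Scaling to all 4 classes together would add 3.07 to every miRNA log2 ratio and the factor of the deposited normalised column 1.89, whereas TMM factors would take 0.11 away. Directions of miRNAs that lay less than 3.07 below 0 therefore turn under the first of these, and such members are marked where they are named. In both libraries 6 miRNAs made up 50% of the miRNA reads, but only 2 of the 10 most abundant miRNAs were shared, and 33 of the 50 most abundant.

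**Figure D2:**
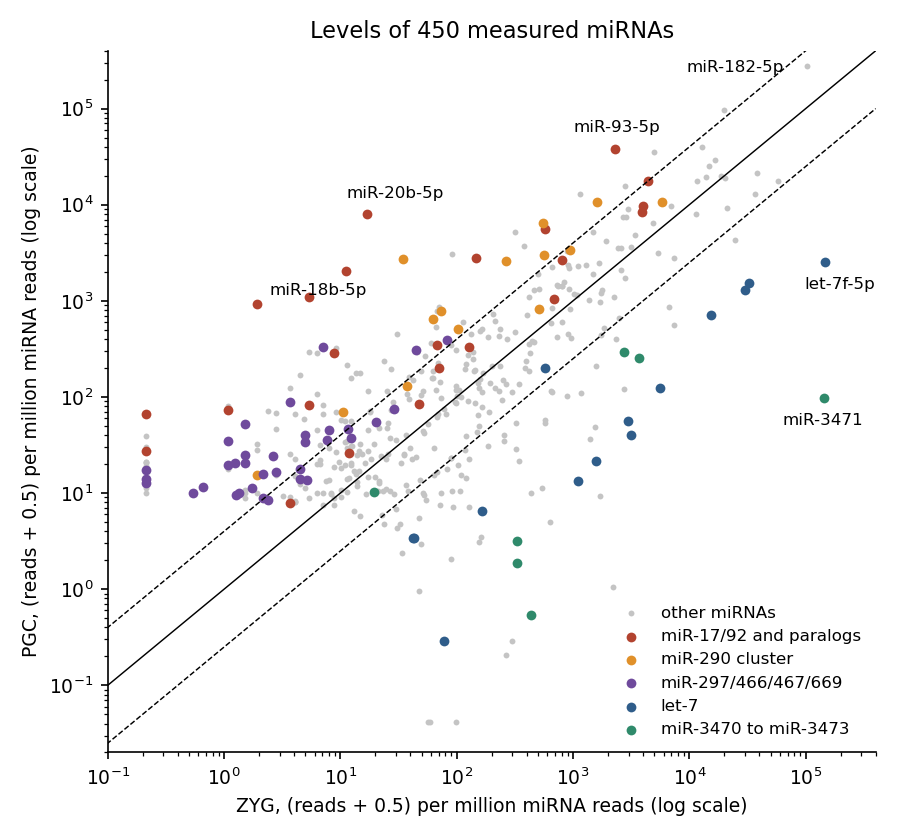
Level of each of the 450 measured miRNAs in PGCs (vertical) against zygotes (horizontal), in RPM on log scales with 0.5 reads added, with a solid line at equal levels and dashed lines at 4-fold. Members of let-7 and of miR-3470 to miR-3473 lie below the diagonal, and members of those 3 polycistrons, the miR-290 cluster and the Sfmbt2 family (miR-297, miR-466, miR-467 and miR-669) lie above it; let-7e-5p and the miR-3470 to miR-3473 member nearest the line (-0.92) turn under the all-class and deposited scalings.

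The most abundant PGC miRNA was miR-182-5p, which made up 28% of miRNA reads in PGCs, against 10.3% in zygotes. Its level was 279837 RPM in PGCs, against 103381 RPM in zygotes, 2.71-fold higher [2.7 to 2.72] and so within 4-fold. Its cluster partner miR-183-5p stood at 97109.7 RPM in PGCs, against 20008 RPM in zygotes, 4.85-fold higher [4.81 to 4.9], while miR-96-5p was at 6383 RPM in PGCs, against 4909 RPM in zygotes. These 3 miRNAs of one transcript are best known from sensory organs, and none of the 4 measured members was called lower. Next came miR-148a-3p at 39397 RPM in PGCs, against 12819 RPM in zygotes, and its seed relatives miR-148b-3p at 7530.3 RPM in PGCs, against 2693 RPM in zygotes, and miR-152-3p at 3286 RPM in PGCs, against 879.6 RPM in zygotes. All of these were higher in PGCs by less than 4-fold, while the passenger arm miR-148a-5p, at 217 RPM in PGCs, against 11.2 RPM in zygotes, was 19.5-fold higher [13.2 to 29.9]. By contrast miR-93-5p, at 38281 RPM in PGCs, against 2302 RPM in zygotes, was 16.6-fold higher [16.2 to 17.1]. The X-linked miR-878-5p followed at 35737 RPM in PGCs, against 4950 RPM in zygotes, 7.22-fold higher [7.09 to 7.36].

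The 3 related polycistrons of miR-17/92, known to drive proliferation, were higher in PGCs, with all 23 measured members above 0 on the log2 scale (61.6% of all measured miRNAs). Of their 26 mature entries 23 were measured, 14 were called higher and 0 lower, and the median log2 ratio was 3.29 (0.75 over all miRNAs). Summed, they stood at 99892 RPM in PGCs, against 17255 RPM in zygotes. Of the 23, 10 had 100 or more reads in PGCs only, so their passing was tied to being high there. At the X-linked miR-106a/363 cluster (chrX:52741697-52742563, minus strand) all 5 measured entries that RefSeq's table places only there were called higher, with log2 ratios of 7.0 to 8.91. All 5 passed the minimum through PGC reads alone, with 0 to 38.8 reads in zygotes, so that count gives no support of its own. Here miR-20b-5p reached 7956 RPM in PGCs, against 16.7 RPM in zygotes, miR-106a-5p 2065 RPM in PGCs, against 11 RPM in zygotes, and miR-18b-5p 933 RPM in PGCs, against 1.72 RPM in zygotes. These are folds of 477 [347 to 668], 188 [126 to 283] and 543 [212 to 1993], the last resting on 4.0 reads in zygotes. miR-363-3p stood at 1098 RPM in PGCs, against 5.16 RPM in zygotes, and miR-20b-3p at 27.5 RPM in PGCs, against 0 reads in zygotes, at least 21.3-fold higher.

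The namesake cluster on chromosome 14 (chr14:115043684-115044496, plus strand), in an exon of the long noncoding RNA Mir17hg, had 4 of 9 measured entries called higher and a median log2 ratio of 1.51. miR-17-5p was at 9808 RPM in PGCs, against 3995 RPM in zygotes, 2.46-fold higher [2.4 to 2.51], and miR-20a-5p at 17758 RPM in PGCs, against 4413 RPM in zygotes, 4.02-fold higher [3.94 to 4.11]. miR-19b-3p, at 1045 RPM in PGCs, against 682 RPM in zygotes, had the lowest ratio of the 23. The widest gaps of this transcript were at 3 entries: miR-92a-1-5p stood at 288 RPM in PGCs, against 8.59 RPM in zygotes, 33.5-fold higher [21.6 to 54.9], miR-18a-5p at 2791 RPM in PGCs, against 147 RPM in zygotes, 18.9-fold higher [17 to 21.1], and miR-18a-3p at 66.8 RPM in PGCs and 0 reads in zygotes, at least 51.8-fold higher. miR-92a-3p, encoded in both the chromosome 14 and the X-linked cluster, was at 8304 RPM in PGCs, against 3953 RPM in zygotes. The third cluster (chr5:138165332-138165807, minus strand), within the replication licensing gene Mcm7, had 4 of 6 entries called higher and a median of 2.82, led by miR-93-5p, with miR-106b-5p at 5641 RPM in PGCs, against 576 RPM in zygotes and miR-25-3p at 2673 RPM in PGCs, against 810 RPM in zygotes. Over the 6 miRNAs with the seed AAAGUGC the sum was 81509 RPM in PGCs, against 11314 RPM in zygotes, and in zygotes miR-17-5p, miR-20a-5p and miR-93-5p made up most of it.

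The miR-290 cluster (chr7:3218639-3220837, plus strand), the leading miRNA cluster of mouse embryonic stem cells and early embryos, was present in both libraries and higher in PGCs. All 14 of its entries were measured, 10 were called higher and 0 lower (26.2% and 17.1% of all measured miRNAs), and the median log2 ratio was 2.73. Of the 14, 4 had 100 or more reads in PGCs only. The cluster summed to 42592 RPM in PGCs, against 10598 RPM in zygotes. The ratio was lowest for miR-292-3p, at 815 RPM in PGCs, against 512 RPM in zygotes. Among those with the seed shown above, miR-291a-3p stood at 10762 RPM in PGCs, against 5814 RPM in zygotes, 1.85-fold higher [1.82 to 1.88], and miR-294-3p at 3381 RPM in PGCs, against 944 RPM in zygotes. miR-295-3p was at 10682 RPM in PGCs, against 1619 RPM in zygotes, 6.6-fold higher [6.39 to 6.82]. Some 5p arms lay further apart, with miR-292-5p at 6462 RPM in PGCs, against 555 RPM in zygotes and miR-291b-5p at 2742 RPM in PGCs, against 34.2 RPM in zygotes, 80.3-fold higher [64.1 to 101]. Of the 6 entries of the cluster of miR-302 and miR-367, which holds this seed too and marks the epiblast, 1 was measured: miR-302b-3p had 120.4 reads in PGCs and 4.0 in zygotes. The cluster summed to 27.9 RPM in PGCs, against 1.72 RPM in zygotes, and no reads were listed for it in the other 3 libraries.

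The let-7 family, which accumulates as cells differentiate and restrains growth genes, ran the other way. Of 14 measured let-7 entries (23 in all) 13 were called lower in PGCs and 0 higher, with a median log2 ratio of -5.08, a direction kept under every scaling tried. Of the 14, 2 had 100 or more reads in zygotes only. The family summed to 6524 RPM in PGCs, or 0.652% of miRNA reads, against 241889 RPM or 24.2% in zygotes. let-7f-5p alone had 2519 RPM in PGCs, against 148063 RPM in zygotes, 58.8-fold lower [58.1 to 59.5]. let-7a-5p was at 1536 RPM in PGCs, against 32884 RPM in zygotes, 21.4-fold lower [21.1 to 21.8], and let-7g-5p at 1284 RPM in PGCs, against 30243 RPM in zygotes, 23.6-fold lower [23.1 to 24]. Still wider gaps were found at let-7b-5p, 79.9-fold lower [72.8 to 87.8] in PGCs, and at miR-98-5p, a let-7 member by seed, 72.1-fold lower [63.5 to 82.1]. Passenger arms went the same way: all 5 measured entries of the cluster of let-7d, let-7f-1 and let-7a-1 (chr13:48536024-48538260, minus strand) were called lower. None of these passenger arms reached 100 reads in both libraries. let-7d-3p and let-7f-1-3p did so in zygotes only, and let-7a-1-3p only over the pair. Their calls therefore give no support of their own. The 1 measured member not called was let-7e-5p, at 201 RPM in PGCs, against 572 RPM in zygotes, 2.85-fold lower [2.66 to 3.05], whose direction turns when reads are scaled to all 4 classes or by the deposited factor.

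let-7e shares a cluster on chromosome 17 (chr17:17830194-17830876, plus strand) with miR-99b and miR-125a, and its hairpin lies within Spaca6. The members of this cluster lay apart. miR-99b-5p was at 12907 RPM in PGCs, against 1140.5 RPM in zygotes, 11.3-fold higher [10.9 to 11.8], its passenger miR-99b-3p was 56.6-fold higher [32.4 to 109.6], and miR-125a-5p stood at 509 RPM in PGCs, against 165 RPM in zygotes. Among miR-99, miR-100 and miR-125 entries 3 of 7 measured entries were called higher and 1 lower, against 26.2% and 17.1% of all measured miRNAs. The lower one was miR-100-5p, at 111 RPM in PGCs, against 1165 RPM in zygotes. Of the 3 called higher, miR-99b-3p and miR-125a-3p passed the minimum of reads through PGCs alone. The miR-181c/d pair inside Nanos3 had all 3 measured entries called higher, with miR-181d-5p at 3044 RPM in PGCs, against 90.5 RPM in zygotes, 33.6-fold higher [29.3 to 38.6], and miR-181c-5p at 297 RPM in PGCs, against 45.1 RPM in zygotes, 6.57-fold higher [5.41 to 8.06]. Their seed relatives encoded elsewhere were closer: miR-181a-5p stood at 433 RPM in PGCs, against 231 RPM in zygotes, and miR-181b-5p at 225 RPM in PGCs, against 69.3 RPM in zygotes. Of the 3 measured entries inside Nanos3, miR-181c-3p passed the minimum of reads through PGCs alone.

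Large repeat-rich and imprinted clusters were examined next. The family of miR-297, miR-466, miR-467 and miR-669, mostly from an intron of the imprinted gene Sfmbt2, had 34 of 74 entries measured, 27 called higher and 0 lower, with a median log2 ratio of 2.87. Its levels were low, 1951 RPM in PGCs and 285 RPM in zygotes over all members, and 32 of the 34 entered the comparison through PGC reads alone, so their count gives no support of its own. miR-669a-3p was at 388 RPM in PGCs, against 82.6 RPM in zygotes, miR-467a-5p at 305 RPM in PGCs, against 44.5 RPM in zygotes, and miR-297a-5p at 329 RPM in PGCs, against 6.88 RPM in zygotes. Members of this family are near-identical copies, and how reads were shared among them is uncertain. Of 45 measured miRNAs of the imprinted Dlk1-Dio3 region of chromosome 12 (89 entries), 4 were called higher and 4 lower, with a median of 0.41. Over all measured miRNAs 26.2% were called higher and 17.1% lower. The minimum was reached in PGCs only by 25 of the 45. miR-127-3p of that region was at 1473 RPM in PGCs, against 723 RPM in zygotes, and miR-376c-3p at 8.41 RPM in PGCs, against 54.1 RPM in zygotes, lower in PGCs unless all 4 classes are scaled together.

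The X-linked miRNA family of the testis, which includes miR-465, miR-741, miR-743, miR-871, miR-878 and miR-880, was abundant in both libraries, summing to 102019.8 RPM in PGCs and 55746 RPM in zygotes. Of 33 measured entries (37 in all) 4 were called higher and 2 lower, against 26.2% and 17.1% of all measured miRNAs, with a median of 0.58, below that of all miRNAs. The minimum was reached in PGCs only by 8 of the 33. miR-871-3p stood at 19095 RPM in PGCs, against 20212 RPM in zygotes, close to equal, in a direction that turns under the all-class and deposited scalings. miR-880-3p was at 15510.5 RPM in PGCs, against 2804 RPM in zygotes, 5.53-fold higher [5.4 to 5.67], whereas miR-547-3p was 8.79-fold lower [7.02 to 11.1] and miR-201-3p 14.6-fold lower [9.35 to 23.3]. Over the whole X chromosome 23.1% of 65 measured miRNAs were called higher and 12.3% lower, against 21.6% and 19.0% of 273 autosomal ones.

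Zygotes carried a set of miRNAs that were far lower in PGCs, some of them nearly lacking there. miR-3471 made up 14.4% of their miRNA reads, with 98.3 RPM in PGCs, against 143649 RPM in zygotes, 1461-fold lower [1380 to 1549], and it was as abundant in oocytes, at 144586 RPM. Of the 7 measured entries of miR-3470 to miR-3473 (10 in all), 6 were called lower and 0 higher, with a median log2 ratio of -6.69. The share called lower over all measured miRNAs was 17.1%. Of the 7, 3 passed the minimum of reads through zygotes alone: miR-3472, miR-3473e and miR-3473b, whose ratio is the median. Their calls therefore give no support of their own. The 3 that passed through both libraries, miR-3470a, miR-3470b and miR-3471, were called lower too. miR-3472 had 6.0 reads in PGCs and 1010 in zygotes. miR-1940 was at 1 RPM in PGCs, against 2188 RPM in zygotes, 2189-fold lower [1252 to 4239], miR-7043-5p at 3.0 reads in PGCs and 700.5 in zygotes, and miR-147-5p at 2.0 reads in PGCs and 612 in zygotes. miR-7035-3p, miR-873a-5p and miR-7061-3p had 0 reads in PGCs and 231, 136 and 130 in zygotes, which is at least 397-fold lower, at least 234-fold lower and at least 224-fold lower. miR-664-5p stood at 9.25 RPM in PGCs, against 1714 RPM in zygotes and miR-3547-3p at 4.91 RPM in PGCs, against 634 RPM in zygotes. Of the miRNAs named from miR-1940 on, all but miR-664-5p passed the minimum of reads through zygotes alone.

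The 12 highest ratios also held 6 miRNAs from outside the miR-17/92 polycistrons, of low level in PGCs and with 0 reads in zygotes. miR-6539 had 470 reads in PGCs, miR-186-3p 361, miR-1258-3p 255, miR-7036b-5p 254, miR-760-3p 245 and miR-3475-3p 230. Their folds were at least 14.9 to at least 30.4, and each passed the minimum of reads through PGCs alone. Just inside that minimum lay miR-93-3p, with 93 reads in PGCs and 8 in zygotes, and just outside it miR-669a-3-3p, with 99.6 reads in PGCs and 0.2 in zygotes.

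Several abundant zygote miRNAs were lower in PGCs by a smaller factor, and their direction depends on the scaling. miR-30e-5p was at 17861 RPM in PGCs, against 57915 RPM in zygotes and miR-30a-5p at 21414 RPM in PGCs, against 38515 RPM in zygotes, and both turn under the all-class and deposited scalings. miR-30c-5p, at 4247 RPM in PGCs, against 24552 RPM in zygotes, 5.78-fold lower [5.71 to 5.85], turns only when all 4 classes are scaled together. miR-30d-5p differed little, at 20138 RPM in PGCs, against 18699 RPM in zygotes, with a direction that turns under TMM factors. Over 11 measured miR-30 entries 2 were called higher and 2 lower, with a median of 0.08 that turns under TMM factors. miR-21a-5p, a widely expressed growth-linked miRNA, was at 12840.4 RPM in PGCs, against 36834 RPM in zygotes, and it turns under the all-class and deposited scalings. miR-221-3p, at 7.5 RPM in PGCs, against 71.3 RPM in zygotes, and miR-222-3p, at 5.5 RPM in PGCs, against 46.8 RPM in zygotes, neighbours on the X chromosome, were called lower, by 9.52-fold and 8.52-fold. The smaller families were mostly within 4-fold: among 12 measured miR-15 and miR-16 entries 1 was called higher and 1 lower, among 9 of miR-23, miR-24 and miR-27 1 was higher and 0 lower, and among 4 of the Hox-linked miR-10 and miR-196 and 3 of miR-29 none was called. The medians of miR-15 with miR-16 (-0.44) and miR-29 (-1.0) turn under the all-class and deposited scalings, and miR-34c-5p, a spermatid miRNA at 3181 RPM in PGCs, against 5363 RPM in zygotes, does so too.

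**Figure D3:**
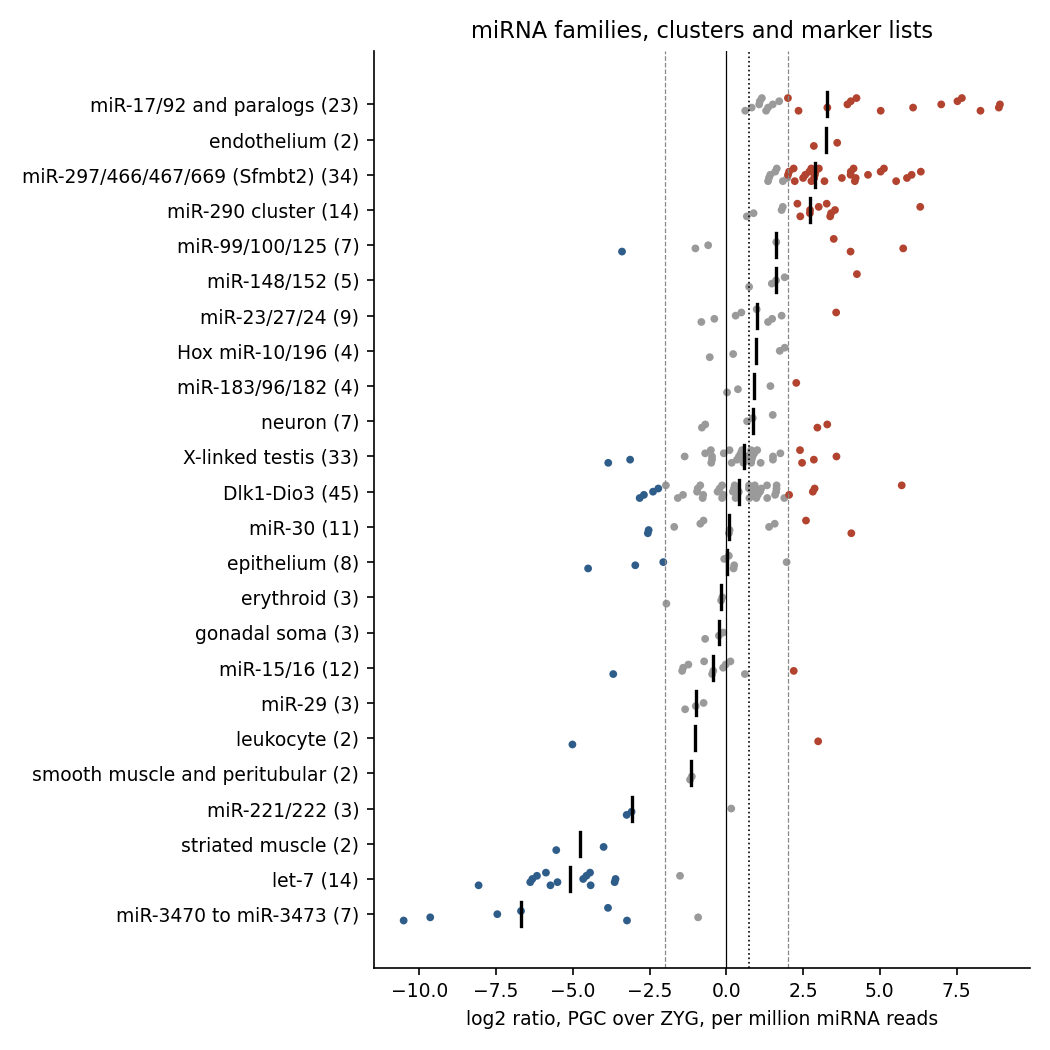
Log2 ratio, PGC over zygote, of the measured members of each miRNA family, cluster or marker list with at least 2 of them (number in brackets), with a black bar at the median of the list, a dotted line at the median of all 450 miRNAs (0.75) and dashed lines at 4-fold. Lists run from miR-17/92 and paralogs (median 3.29) at the top to miR-3470 to miR-3473 (median -6.69) at the bottom, and those with medians from -1.15 to just below 0 turn to above 0 under the all-class and deposited scalings, as miR-30 and epithelium turn under TMM factors.

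Which arm of a hairpin gave the reads was compared at 149 hairpins with 100 or more reads in each library. The share of 5p reads differed by a median of 1.38 percentage points, and this share does not depend on the scaling. At 16 hairpins it differed by over 20 points, and at 6 the leading arm was not the same. For miR-221 the 5p arm held 84.4% of reads in PGCs [81.2 to 87.3], against 33.6% in zygotes [27.8 to 39.8]. For miR-291b it held 77.9% in PGCs and 31.9% in zygotes. The reverse held for miR-335, which lies in an intron of the imprinted gene Mest, with 31.6% of reads on the 5p arm in PGCs [31.0 to 32.1] and 76.9% in zygotes [75.9 to 77.8]. The other 3 were miR-664 (48.3% in PGCs and 79.9% in zygotes), miR-676 (29.7% in PGCs and 52.4% in zygotes) and miR-700 (39.5% in PGCs and 69.7% in zygotes). In the abundant miR-30e the 5p arm led in both, but with 66.7% of reads in PGCs and 95.1% in zygotes.

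The miRNAs were also grouped by shared seed and by shared locus. Of 16 seeds with 3 or more measured miRNAs, 7 had every member above 0 on the log2 scale and 4 every member below. The seed ACCCGUA of miR-99 and miR-100 was one of those that split, since miR-99b-5p and miR-100-5p were called in opposite directions. Of 21 genomic clusters, defined as hairpins within 10 kb on one strand with at least 3 measured entries, 8 had all entries above 0, 2 all below and 11 on both sides. Over all 450 measured miRNAs 61.6% lay above 0, so small groups with every member above 0 are to be looked for. These counts hold for the main scaling, and scaling to all 4 classes would add 3.07 to every ratio.

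Markers of other cell types were read as well, since both preparations could carry them. The endothelial miR-126a, from an exon of Egfl7, was called higher at 2 of 2 entries, with miR-126a-3p at 854 RPM in PGCs, against 69.6 RPM in zygotes, and the list summed to 1051 RPM in PGCs and 96.7 RPM in zygotes. Of these 2, miR-126a-5p passed the minimum of reads through PGCs alone, and 26.2% of all measured miRNAs were called higher. Of 11 neuronal entries, 7 were measured, 2 called higher and 0 lower, while 26.2% of all measured miRNAs were called higher. Of the 7, 5 lay above 0 and 2 below, and 4 passed the minimum of reads through PGCs alone. The largest was miR-9-5p, at 3698 RPM in PGCs, against 378 RPM in zygotes, 9.78-fold higher [9.15 to 10.5]. The arms miR-124-5p and miR-128-2-5p had 0 reads in both libraries, but their opposite arms were present in both. miR-124-3p had 220 reads in PGCs and 23 in zygotes, and miR-128-3p 1472 in PGCs and 495 in zygotes. The log2 ratios of miR-128-3p (-0.796) and miR-9-3p (-0.686) were below 0, and both turn under the all-class and deposited scalings. Leukocyte markers split, with miR-142-3p at 532 RPM in PGCs, against 66.6 RPM in zygotes and miR-155-5p at 48.1 RPM in PGCs, against 1554 RPM in zygotes. Of the 7 leukocyte entries these 2 were measured, and 1, miR-223-5p, had 0 reads in both libraries. Erythroid markers summed to 213 RPM in PGCs and 330.5 RPM in zygotes, with 0 of 3 measured called either way and none of the 5 at 0. Smooth muscle and peritubular markers, mostly miR-143-3p, summed to 9261 RPM in PGCs and 20992 RPM in zygotes, and gonadal soma markers, mostly miR-202-5p, to 1745 RPM in PGCs and 2798 RPM in zygotes. The medians of both lists, and of the erythroid one, turn under the all-class and deposited scalings. Striated muscle markers were called lower at 2 of 2 measured entries (26.1 RPM in PGCs and 509.7 RPM in zygotes). Of these 2, miR-206-3p passed the minimum of reads through zygotes alone, and 17.1% of all measured miRNAs were called lower. Epithelial markers split, with 4 of 8 measured entries above 0 and 4 below, and a median log2 ratio of 0.0066 that turns under TMM factors. Of the 8, 3 were called lower and 0 higher, and the highest log2 ratio was 1.965, for miR-205-5p. Among the lower ones miR-141-3p was at 121 RPM in PGCs, against 2736 RPM in zygotes, and miR-200c-3p at 859.8 RPM in PGCs, against 6718 RPM in zygotes. The direction of miR-200c-3p turns if all 4 classes are scaled together. The liver miRNA miR-122-5p had 0 reads in PGCs and 4 in zygotes. Members at 0 reads numbered 2 of 14 epithelial, 3 of 8 striated muscle and 1 of 5 smooth muscle entries in PGCs, against 3, 3 and 1 in zygotes. The part of other cells in the miRNA differences was not tested.

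Among snoRNAs, reads piled onto a single entry. SNORD60, a box C/D snoRNA that guides methylation of ribosomal RNA, held 91.2% of snoRNA reads in PGCs and 76.3% in zygotes. It is shown with 2 others, from GENCODE vM21 on GRCm38, to set the leading entry beside members of both box classes that were lower in PGCs. Capitals mark the first TGATGA (box C) and the last CTGA (box D) or, in SNORA70, the last ACA (the ACA box), searched on the strand shown without overlap. Of 97 annotated Snord genes 69.1% hold both motifs within 20 bases of the ends, and of 40 Snora genes 95.0% hold ACA within the last 8 bases.
SNORD60: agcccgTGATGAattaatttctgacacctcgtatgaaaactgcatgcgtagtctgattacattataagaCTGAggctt
SNORD21: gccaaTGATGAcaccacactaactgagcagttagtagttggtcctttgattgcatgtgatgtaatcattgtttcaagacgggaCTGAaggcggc
SNORA70: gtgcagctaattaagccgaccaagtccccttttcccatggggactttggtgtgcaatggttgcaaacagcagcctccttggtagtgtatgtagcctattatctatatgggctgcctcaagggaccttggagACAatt
Snord60 lies at chr17:24528476-24528553 on the plus strand in an exon of the antisense transcript Rab26os. Snord21 lies at chr5:107904555-107904648 and Snora70 at chrX:74272484-74272620, both on the plus strand within the ribosomal protein genes Rpl5 and Rpl10.

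Of 120 measured snoRNAs, 2 (1.67%) were at least 4-fold higher in PGCs and 59 (49.2%) at least 4-fold lower, with a median log2 ratio of -1.94. These directions rest on the total. TMM factors would add 2.28 to every snoRNA log2 ratio, totals without the leading entries 2.38, the deposited factor 3.19 and scaling to all 4 classes 4.37. Without SNORD60 the ratios were 1.43 higher, 9 of 119 snoRNAs were called higher and 34 lower, and the median was -0.54. Levels are therefore best read against the class median. By class, 83 measured C/D entries had a median of -1.59, 26 H/ACA entries, which guide pseudouridylation, -2.65, and 3 small Cajal body RNAs (scaRNAs), which guide marks on spliceosomal RNA, -7.06. That order does not depend on scaling, although the C/D median turns under each of the 4 scalings and the H/ACA median under the all-class and deposited ones.

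Without SNORD60 in the totals, C/D entries held 96.5% of the remaining reads in PGCs, against 75.9% in zygotes. H/ACA entries held 1.66% in PGCs and 6.96% in zygotes, and scaRNAs 0.751% in PGCs and 16.1% in zygotes. scaRNA6 was the main scaRNA, at 644 RPM in PGCs, against 37006 RPM in zygotes, 57.4-fold lower [55.7 to 59.3] under the main scaling and lower under all others. scaRNA18 was at 4.39 RPM in PGCs, against 624 RPM in zygotes. scaRNA20 was at 1.6 RPM in PGCs, against 221 RPM in zygotes, and in oocytes it stood at 5.34 RPM. Among H/ACA snoRNAs, SNORA70 was at 11.7 RPM in PGCs, against 1274 RPM in zygotes, 109-fold lower [87.2 to 137], and SNORA30 at 2.19 RPM in PGCs, against 507 RPM in zygotes, while SNORA54 had 2.0 reads in PGCs and 138 in zygotes, a ratio of 877 [238 to 7315], zygote over PGC. The second snoRNA of zygotes was SNORD63, at 1313 RPM in PGCs, against 59204 RPM in zygotes, 45.1-fold lower [44.1 to 46.1] and lower under every scaling. SNORD21 was at 2075 RPM in PGCs, against 25248 RPM in zygotes, lower unless all 4 classes are scaled together.

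Against this background few snoRNAs were higher in PGCs. SNORD28 was at 1639.5 RPM in PGCs, against 146 RPM in zygotes, 11.2-fold higher [9.03 to 13.9]. It is encoded with SNORD22, SNORD25 to SNORD27 and SNORD29 to SNORD31 in introns of the noncoding host gene Snhg1, and those other 7 had log2 ratios of -2.98 to -1.26, which turn under at least 2 of the 4 other scalings while the gap to SNORD28 stays. SNORD35, counted with the ribosomal protein gene Rpl13a as host, was at 61029.7 RPM in PGCs, against 16349.9 RPM in zygotes, 3.73-fold higher [3.66 to 3.81], and its neighbours SNORD32, SNORD33 and SNORD34 had log2 ratios from -1.03 to 0.08, those below 0 turning under all 4 other scalings. GENCODE has 2 SNORD35 genes, Snord35a and Snord35b, which the entry does not tell apart. SNORD78 led its host Gas5 in the same way, at 2227 RPM in PGCs, against 878 RPM in zygotes, beside SNORD81 at 365 RPM in PGCs, against 1078 RPM in zygotes, whose direction turns under all 4 other scalings. SNORD86 was also called higher, with 133 reads in PGCs and 1.0 in zygotes, a ratio of 10.5 [1.85 to 416].

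**Figure D4:**
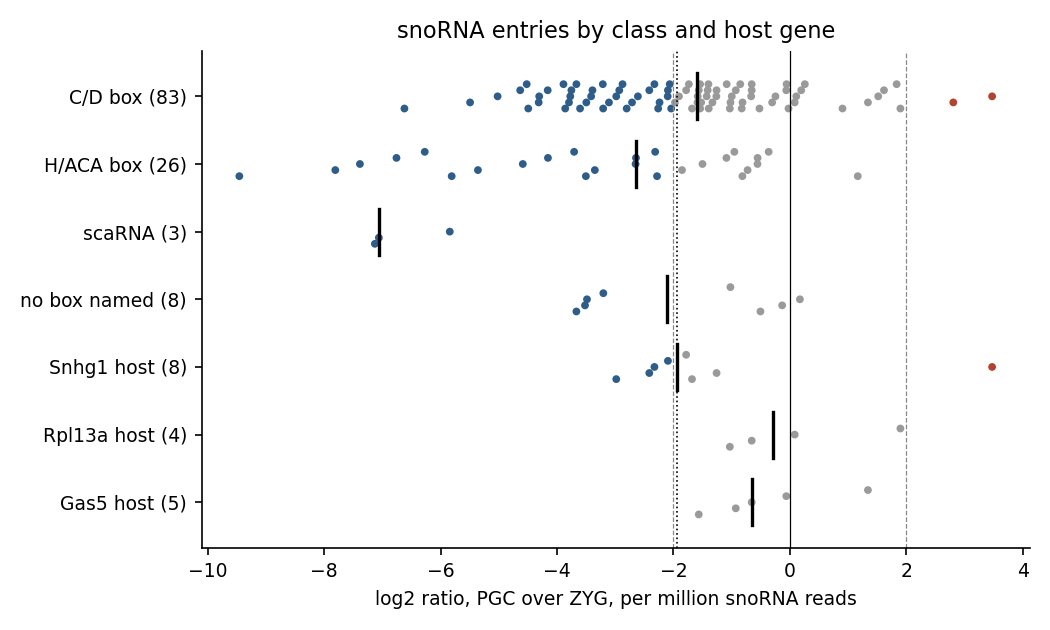
Log2 ratio, PGC over zygote, of measured snoRNA entries by class and, in the lower 3 rows, by host gene (members also stand in their class), with a black bar at the median of each row, a dotted line at the median of all 120 (-1.94) and dashed lines at 4-fold. The row of 3 scaRNAs, 2 of which passed the minimum through zygote reads alone, has the lowest median (-7.06), and SNORD28 of Snhg1 lies furthest right (3.48). The whole picture shifts right by 1.43 without SNORD60 and by up to 4.37 under other scalings, which turns the medians of all rows but the scaRNAs in at least 1 of them.

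The piRNA tables held like shares of reads but different entries. Of 4732 measured entries, 2229 (47.1%) were higher and 1394 (29.5%) lower in PGCs, with a median log2 ratio of 1.73, from which TMM factors would take 1.57 and the deposited factor 1.20. Of the 4732 entries, 2714 reached the minimum of reads in PGCs and 2440 in zygotes, but only 961 in both. Most were therefore not measured through both libraries, and passing by being high in 1 library favours 4-fold calls. Entries are named with the prefix PIR or mmur and carry no gene or repeat. How passing was split between the prefixes was not tested, so their calls carry this limit too. The prefixes lay apart. Of 2607 measured mmur entries 71.1% were called higher and 3.49% lower (median 3.07), and of 2091 PIR entries 17.8% higher and 62.2% lower (median -3.75). PIR entries nevertheless held 50.8% of piRNA reads in PGCs and 60.9% in zygotes. The most abundant PGC entry was PIR64428, with 10.7% of piRNA reads there at 106562 RPM in PGCs, against 17649 RPM in zygotes, 6.04-fold higher [6.0 to 6.07]. Next were PIR64875 and PIR64874, consecutive numbers with near-equal reads, at 25453 and 25428 RPM in PGCs, against 8941 and 8935 RPM in zygotes, a direction that turns under TMM factors.

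Zygote piRNA reads were led by PIR232912, at 338 RPM in PGCs, against 58509.8 RPM in zygotes, 173-fold lower [166 to 181], and PIR235614, at 210.4 RPM in PGCs, against 33669 RPM in zygotes, 160-fold lower [151 to 169]. Both were also abundant in oocytes, at 25460.4 and 13006 RPM. PIR75142 and mmur001134778 were among the 5 most abundant in both, the first at 18633 RPM in PGCs, against 30772 RPM in zygotes and the second at 14518 RPM in PGCs, against 17062 RPM in zygotes. The entries with the lowest ratios had 0 reads in PGCs: PIR202912 had 2665 reads in zygotes, at least 541-fold lower, and PIR210282, PIR209195 and PIR232688 were at least 393-fold lower, at least 318-fold lower and at least 312-fold lower. At the other end mmur000385365 had 4412 reads in PGCs and 0.15 in zygotes, and PIR36940 1181 in PGCs and 0 in zygotes, at least 646-fold higher. PGC reads spread more widely, with 2232 entries holding 90% of piRNA reads in PGCs and 563 in zygotes. Counting runs of consecutive entries with near-equal reads once left 1670 of 3936 higher and 1354 lower.

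Most measured endo-siRNA entries were called lower in PGCs as shares of their class, but the minimum of reads and depth limit this count. Of 24055 measured entries, 1774 (7.37%) were higher and 17143 (71.3%) lower, with a median log2 ratio of -2.98. The minimum was reached in zygotes by 22887 entries, in PGCs by 1221 and in both by 552. Passing through zygote reads favours calls of lower, so that count gives no support of its own. An entry just inside the minimum of 100 reads, with 0 reads in PGCs and 100 in zygotes, had a log2 ratio of -2.99, and one just outside, with 0.5 reads in PGCs and 99.49 in zygotes, -1.98. With 5 reads added in place of 0.5, 4042 entries were called lower and 1888 higher. Among the 5015 measured entries with a mean level of 20 RPM or more, a bound chosen after seeing the data, 28.7% were called higher and 56.0% lower, with a median of -2.6. This subset kept the minimum of 100 reads, which stands for a far lower RPM in zygotes than in PGCs. With the bound on the mean in place of that minimum, 1994 of 5571 entries were called higher and 2810 lower. TMM factors would take a further 1.14 from every log2 ratio, scaling to all 4 classes 3.96 and the deposited factor 5.14.

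The leading entries of the libraries were different. Zygote reads were led by mmur001272954, which held 17.4% of endo-siRNA reads in zygotes, at 16116 RPM in PGCs, against 173624 RPM in zygotes, 10.8-fold lower [10.6 to 10.9]. The next in zygotes, mmur001273859 and mmur001273858, carried near-equal reads, at 2575 and 2515 RPM in PGCs, against 29137 and 28287 RPM in zygotes. PGC reads were led by mmur000042018, at 43084 RPM in PGCs, against 1.29 RPM in zygotes, which reached 92451 RPM in spermatozoa. mmur000878697 followed at 19781 RPM in PGCs, against 134 RPM in zygotes, 148-fold higher [143 to 153]. The third of PGCs was the leading entry of zygotes, and only 1 of the 50 most abundant entries was shared. mmur001336830 had 13491 reads in PGCs and 0 in zygotes, and 0 in oocytes too. At the low end, mmur001033508 had 0 reads in PGCs and 3392 in zygotes, at least 44.7-fold lower.

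**Figure D5:**
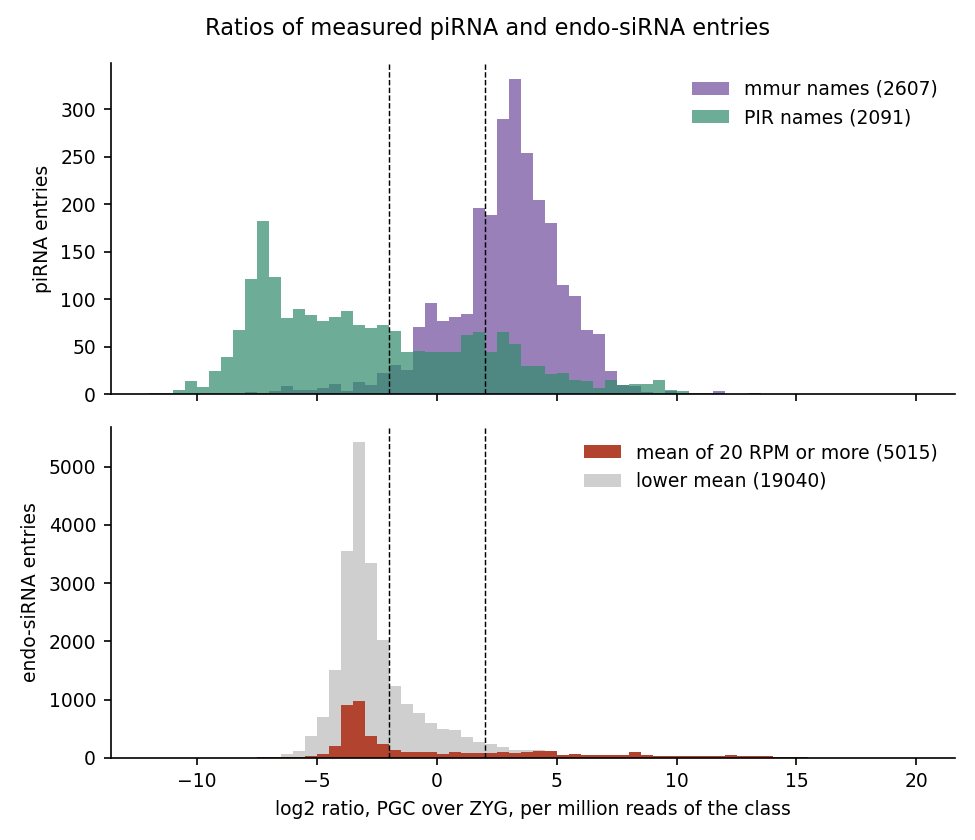
Number of measured entries by log2 ratio, PGC over zygote, for piRNAs split by name (top) and endo-siRNAs split by mean level (bottom, stacked), with dashed lines at 4-fold. PIR entries peak on the left and mmur entries on the right of 0, with medians of -3.75 and 3.07, and the tallest endo-siRNA bars lie left of the lower dashed line at both levels. Other scalings move the piRNA bars left by up to 1.57 and the endo-siRNA bars left by up to 5.14, which leaves both of these piRNA medians on their side of 0. Of the 4732 piRNA entries, 961 reached the minimum of reads in both libraries. For the 24055 endo-siRNA entries this number was 552, and 22887 reached the minimum in zygotes.

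Spermatogonia (CD-1, from testes 8.5 days post natum) and metaphase II oocytes (of superovulated C57BL/6 females) gave a pair of libraries that shares none with PGCs and zygotes. Of the 118 miRNAs called higher in PGCs, 92 were measured in that pair and 58 (63.0%) were at least 4-fold higher in spermatogonia than in oocytes, against 30.9% of the 405 miRNAs measured in both pairs. Of the 77 called lower, 74 were measured and 28 (37.8%) were at least 4-fold lower in spermatogonia, against 12.3%. For piRNAs these shares were 81.8% of those called higher (50.5% over all) and 63.0% of those called lower (20.0% over all), and for endo-siRNAs 62.6% of the higher (9.18% over all) and 56.6% of the lower (46.2% over all). For snoRNAs called lower the share was 62.5%, against 40.0%. Strain differs in the same way in this pair, and its part was not tested. Levels in all 5 libraries are given for 3 miRNAs. miR-20b-5p was at 7956 RPM in PGCs, 111 RPM in spermatogonia, 5.48 RPM in spermatozoa, 27.2 RPM in oocytes and 16.7 RPM in zygotes. let-7f-5p was at 2519, 28403, 52047, 122192 and 148063 RPM in the same order. miR-295-3p stood at 10682 RPM in PGCs, 324 RPM in spermatogonia and 20.6 RPM in spermatozoa, with 1265 RPM in oocytes and 1619 RPM in zygotes. Of these 3, miR-20b-5p and let-7f-5p lay the same way in both pairs, and miR-295-3p was lower in spermatogonia than in oocytes.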

How the data were processed

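Small RNA libraries of PGCs and zygotes were compared, with the submitted tables of spermatogonia and oocytes as a further pair. Each deposited table gives an entry name, reads and a normalised value. The authors' reads are estimated counts as deposited, since 14.8% to 84.7% of values in a PGC or zygote table have a fraction, and were rounded only for intervals and TMM. The normalised column, TMM per the file headers, is a signal that equals the deposited reads times 1 factor per library, and served only as an alternative. Bowtie 0.12.7, DESeq and mm10 are named without roles, per the submitters' processing notes; counting of multiply matching reads is not given in the sources used here. All totals come from the tables, so reads of other RNA are not in them.

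Entries absent from a table were taken as 0. Left out were 6 snoRNA entries that name no single snoRNA (0.551% of its reads in PGCs, 4.59% in zygotes). Reads were scaled to the class total, log2 ratios used 0.5 added reads, and entries with 100 reads over the pair were kept. Folds have exact conditional Poisson intervals and shares exact Clopper-Pearson intervals, at 95%; reads are not independent molecules, so both cover counting error only. A fold against 0 reads is a bound from 3 counts in that library (0.25 RPM for miRNAs in PGCs, 1.29 in zygotes; 2.47 and 0.0975 for endo-siRNAs). The code was tested on simulated data. Python 3.11.15, pandas 2.3.3, scipy 1.17.1, R 4.3.3 and edgeR 4.0.16 (TMM) were used. Host genes come from GENCODE vM21 on GRCm38, the assembly also called mm10.

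Named were, per class, the highest and lowest ratios (12 each for miRNAs, 6 for snoRNAs, 4 for the others), the most abundant entries (10 for miRNAs, else 5), list members, leading seed groups and hairpins whose leading arm differs. Members and lists were chosen with earlier results of these data known. Alternatives were 4 scalings, minimums of 20 reads and 1 read, 5 added reads and runs counted once, and, chosen after seeing the data, a mean of 20 RPM and totals without SNORD60.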

Additional observations from a re-analysis of the deposited data

Results flagged for a closer look

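Some entries had 0 reads in both PGCs and zygotes and 100 or more reads in another library: 2 miRNAs, 0 snoRNAs, 233 piRNA and 79 endo-siRNA entries. The 2 miRNAs were miR-7210-5p, with 748 reads in spermatozoa, and miR-6931-5p, with 150 there. The leading piRNA entries were PIR202342, with 1650 reads in spermatozoa, and PIR274520, with 1646. The leading endo-siRNA entries were mmur001434101, with 1735 reads in spermatozoa, and mmur001106197, with 1210. Among the piRNA entries 227 of 233 had their most reads in spermatozoa, and among the endo-siRNA entries 53 of 79 in spermatogonia. With 0 reads an miRNA may still stand at up to 0.25 RPM in PGCs and 1.29 RPM in zygotes.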

How the results depend on the processing

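No paired analysis was possible because each side has 1 library, and no replicate could be left out. Counts that moved by over 1.5 times were these. Scaled to all 4 classes 343 miRNA entries were higher and 26 lower, 70 snoRNA entries were higher and 7 lower, 732 endo-siRNA entries were higher. With the deposited factor 269 miRNA entries were higher and 35 lower, 41 snoRNA entries were higher and 12 lower, 1440 piRNA entries were higher, 607 endo-siRNA entries were higher. With TMM factors 19 snoRNA entries were higher and 19 lower, 1184 piRNA entries were higher. With totals without the leading entries 21 snoRNA entries were higher and 17 lower. With a minimum of 20 reads 189 of 666 miRNA entries were higher and 130 lower, 4 of 154 snoRNA entries were higher, 6968 of 14802 piRNA entries were higher and 3530 lower, 6938 of 59003 endo-siRNA entries were higher. With no minimum 262 of 990 miRNA entries were higher and 252 lower, 4 of 178 snoRNA entries were higher and 93 lower, 39102 of 86399 piRNA entries were higher and 12153 lower, 48266 of 144440 endo-siRNA entries were higher. With 5 reads added 1 snoRNA entry was higher, 4042 endo-siRNA entries were lower. With a mean of 20 RPM, chosen after seeing the data, 75 of 339 miRNA entries were higher, 1 of 129 snoRNA entries was higher, 1119 of 2251 piRNA entries were higher and 622 lower, 2810 of 5571 endo-siRNA entries were lower. The cause was not tested, except that another minimum or a bound on the mean changes how many entries are tested, so such counts are to be read against that number. A scaling adds a constant to every log2 ratio of a class. Without the leading entries the class shares were 48.6% (miRNA), 1.21% (snoRNA), 40.8% (piRNA) and 9.36% (endo-siRNA) in PGCs, against 3.42%, 0.180%, 24.7% and 71.7% in zygotes. Scaled to all 4 classes, log2 ratios that turned to above 0 from at least 4-fold lower were 0.48 for the median of the Snrpn region, 1.72 for the median of H/ACA snoRNAs, 0.54 for miR-30c-5p, 0.77 for SNORD21, 0.10 for miR-200c-3p, 0.51 for miR-30b-5p, 0.39 for miR-376c-3p, 1.39 for SNORD26, 0.51 for SNORD49, 1.02 for SNORA7 and 0.48 for SNORD64. With the deposited factor, log2 ratios that turned to above 0 from at least 4-fold lower were 0.54 for the median of H/ACA snoRNAs and 0.20 for SNORD26. Of the 169 named entries, a further 13, all within 4-fold, turned when scaled to all 4 classes, 12 with the deposited factor, 4 with TMM factors and 1 with totals without the leading entries. Depth limits the comparison most for endo-siRNAs in PGCs, where 4777 measured entries had 0 reads, and for snoRNAs in zygotes, where 3 reads stand for 5.07 RPM.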

Other observations

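For miRNAs 49 entries held 90% of reads in PGCs and 46 in zygotes, and for endo-siRNAs 11499 in PGCs and 14971 in zygotes.

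PiRNA entries were also grouped by name number in blocks of 1000, and blocks with many reads were both one-sided and mixed. PIR232000 to PIR232999 held 0.0672% of piRNA reads in PGCs and 5.97% in zygotes, with 2 entries called higher and 15 lower. PIR235000 to PIR235998 held 0.061% in PGCs and 3.67% in zygotes, with 1 higher and 17 lower. Over all 2091 measured PIR entries 17.8% were called higher and 62.2% lower. PIR59000 to PIR59999 held 4.78% in PGCs and 0.919% in zygotes, with 28 higher, 3 lower and 19 within 4-fold. PIR64000 to PIR64999 held 18.05% in PGCs and 7.15% in zygotes, with 9 higher, 9 lower and 11 within 4-fold, and PIR75000 to PIR75998 held 24 higher, 8 lower and 22 within. The files do not say what neighbouring numbers share.

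The 34 measured piRNA entries with a mitochondrial name lay near equal under the main scaling, with a median log2 ratio of -0.05 (1.73 over all measured piRNA entries). Of the 34, 3 (8.82%) were called higher and 2 (5.88%) lower, against 47.1% and 29.5% over all. TMM factors would take 1.57 from each ratio and the deposited factor 1.20, so near equality depends on the scaling. Of 159 measured endo-siRNA entries on unplaced sequence 8 were called higher and 130 lower, against 1766 and 17013 of 23896 others.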
